A study of Mus musculus with 14 samples.

Results

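The genes described here write, maintain or remove cytosine methylation in the mouse genome: Dnmt1, Uhrf1, Dnmt3b, Dnmt3l and Tdg. They were taken by symbol, and every array probe annotated to one of these 5 symbols was read, which gave 9 probes among 16593 symbols on the array. Expression was measured in pluripotent cells and fibroblasts on 14 Illumina mouse beadchips, 2 for each of 7 groups, with log2 signals as the unit throughout. The series was built to compare the activity of Oct4 (Pou5f1) enhancers in naive and primed pluripotency.

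The groups, all labelled with strain C57/B6, were as follows. Mouse embryonic fibroblasts (MEFs) carried no reporter in their labels. Epiblast stem cells (EpiSCs) were derived from epiblasts, also with no reporter named. Their labels read embryonic day 6.5 and 6.6, but numbers in other sample descriptions also count up from sample to sample, so whether the days differed is not settled. Epiblast-like cells (EpiLCs), ESCs in 2i and a pair of serum populations came from one embryonic stem cell (ESC) source with 2 transgenes. Its GFP was driven by the Oct4 distal enhancer (O4-DE-GFP). Its tdTomato (RFP) sat in a 6 kb Oct4 fragment that lacks the distal enhancer and so reports the proximal enhancer (O4-PE-RFP). The EpiLCs were GFP-RFP+. The 2i ESCs were GFP+RFP- and grew in N2B27 with LIF, 3 µM CHIR99021 and 1 µM PD0325901. The serum ESCs of that source grew with LIF and were GFP+RFP+ or GFP+RFP-. A separate ESC line in serum and LIF carried O4-DE-GFP alone, with no sort gate in its labels ("single-reporter ESCs"). Both reporters are transgenes, so the gates follow enhancer fragments and not the endogenous gene. Nothing says that the 2 samples of a group were separate cultures, so the p-values measure only how far these samples spread, possibly for technical reasons. RNA was taken from cells sorted by flow cytometry, per the design text.

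Dnmt1 copies methylation onto newly replicated DNA, and Uhrf1 brings it to hemimethylated CpGs. Dnmt3b places methylation on unmethylated DNA, and Dnmt3l, which has no catalytic activity of its own, binds and stimulates the Dnmt3 enzymes. Tdg excises some oxidised forms of 5-methylcytosine, after which base excision repair restores an unmodified cytosine. In mouse development these activities are known for the low methylation of naive pluripotent cells and its gain as the epiblast forms.

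A change was called where the adjusted p of a limma model over all 14 arrays and 10481 genes lay under 0.05 (Benjamini-Hochberg). All 5 genes passed the detection filter. The 8 pluripotency markers were detected on both arrays of each pluripotent group, and 6 of them, Pou5f1 among them, were undetected in MEFs. The fibroblast and feeder list of 14 genes averaged 12.59 and 12.70 in MEFs, against 10.44 and 10.51 in single-reporter ESCs, 8.52 to 8.59 in the sorted serum ESCs, 8.16 and 8.23 in 2i and 6.92 and 6.94 in EpiLCs. In EpiSCs its mean was 6.67 on the first array and 8.65 on the second. The EpiSC arrays correlated at 0.976 with each other over all genes tested, and the other pairs of replicates at 0.997 to 0.998. Without cell-level data, a lower level in each cell and fewer cells with the transcript cannot be told apart.

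The maintenance genes Dnmt1 and Uhrf1 were lowest in MEFs, next lowest in single-reporter ESCs, and reduced in EpiLCs against 2i ESCs. Dnmt1 (probe for NM_010066) had log2 signals of 10.64 and 10.54 in MEFs, 12.65 and 12.63 in EpiSCs, 11.94 and 11.95 in EpiLCs, 12.75 and 12.47 in 2i, 11.71 and 11.74 in single-reporter ESCs, 12.53 and 12.56 in RFP+ serum ESCs, and 12.46 and 12.43 in RFP- serum ESCs. Both EpiLC arrays and both single-reporter arrays lay below every array of EpiSCs, 2i and the sorted serum ESCs, and above both MEF arrays. The order of the means ran from EpiSCs through 2i, RFP+ serum, RFP- serum, EpiLCs and single-reporter ESCs to MEFs. Neighbours in the top 4 of that order were not separated by the test, nor were EpiLCs from single-reporter ESCs (adjusted p = 0.0578). In EpiLCs Dnmt1 fell by 0.67 log2 against 2i (SE 0.09, adjusted p = 0.000157), and it was 0.70 higher in EpiSCs than in EpiLCs (SE 0.09, adjusted p = 0.000149). Against the mean of the pluripotent groups, MEFs were 3.31-fold lower (log2 change -1.73, SE 0.07, adjusted p = 5.79e-09).

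Uhrf1 (NM_010931) followed a similar course over a wider range. Its signals were 11.26 and 11.20 in MEFs, 14.25 and 14.06 in EpiSCs, 13.91 and 14.03 in EpiLCs, 14.27 and 14.38 in 2i, 13.27 and 13.36 in single-reporter ESCs, 14.27 and 14.29 in RFP+ serum ESCs, and 14.23 and 14.26 in RFP- serum ESCs. The single-reporter and MEF arrays stood below all others, while the EpiLC arrays lay just under the 2i and sorted serum arrays. Ordered by mean, the groups ran 2i, RFP+ serum, RFP- serum, EpiSCs, EpiLCs, single-reporter ESCs and MEFs, and only the steps down to the last 2 passed the test among these neighbours. In EpiLCs Uhrf1 fell by 0.36 log2 against 2i (SE 0.09, adjusted p = 0.00563). Against RFP+ serum ESCs it fell by 0.31 (adjusted p = 0.0117), a call that was lost without the first EpiLC array (adjusted p = 0.0871) or without the second RFP+ array (adjusted p = 0.0579). In MEFs it was 7.06-fold lower than the pluripotent mean (log2 change -2.82, SE 0.07, adjusted p = 1.63e-10).

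A second Uhrf1 probe, also for NM_010931, was detected on 5 of 14 arrays, which were both 2i arrays, both RFP+ arrays and 1 RFP- array. It had calls that the brighter probe lacked: 0.55 log2 higher in 2i than in RFP- serum ESCs (adjusted p = 0.0169, with 1 of 2 RFP- arrays detected), and lower in EpiSCs than in 2i or RFP- serum ESCs. It was undetected in MEFs, EpiSCs, EpiLCs and single-reporter ESCs, so no fold is given for them. The 2 Uhrf1 probes correlated at 0.60 over the 14 arrays, while the 2 Dnmt3l probes reached 0.9996 and the 2 Dnmt3b probes 0.96.

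**Figure D1:**
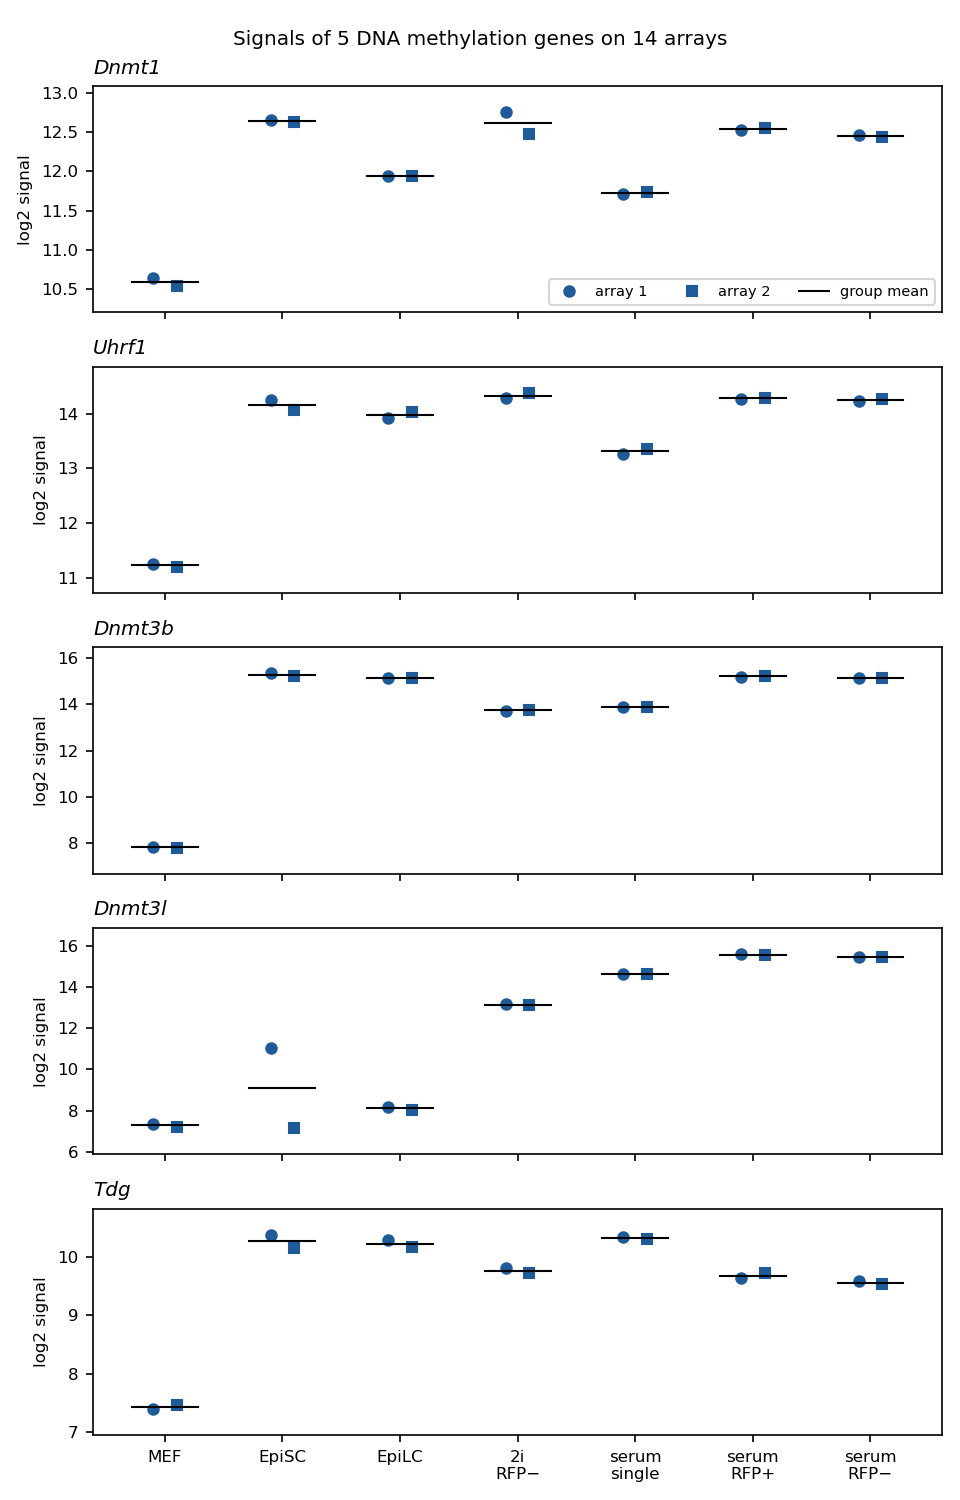
Log2 signal of the representing probe of each gene (y axis, own scale per panel) on each array, by group on the x axis. Circles are first and squares second arrays, lines are group means. Dnmt3l in EpiSCs, at 11.03 and 7.14, differs by 3.89 log2 between arrays, while the largest gap of any gene in a group other than EpiSCs is 0.28.

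Over the 14 arrays Dnmt1 and Uhrf1 correlated at 0.96, and at 0.86 over the 12 pluripotent arrays. Arrays of a group share their source, so these are descriptions. RefSeq start-site windows of 250 bases before to 50 after each start (build GRCm38.p6) were available for all 5 genes, 10 windows in all. They were searched on both strands for the E2F-type motifs TTTCGCGC and TTTGGCGC (reverse GCGCGAAA and GCGCCAAA), which occur in 267 of 32851 windows (0.813%). E2F factors drive genes of DNA replication. Of the 10 windows 2 held a match, 1 of Dnmt1 and 1 of Uhrf1. They are printed because these genes varied together, which over the 14 arrays was not particular to them. Dnmt3b correlated there at 0.95 with Uhrf1 and 0.88 with Dnmt1, and its window held no match. Over the 12 pluripotent arrays those values were 0.42 and 0.29. A part of E2F factors in the levels was not tested. The Dnmt1 window at chr9:20952574-20952873, minus strand, holds 2 matches, which start at bases 32 and 284 of it, and 33 CpGs. The Uhrf1 window at chr17:56304063-56304362, plus strand, holds 1 match, which starts at base 66, and 33 CpGs. The median over all windows is 7 CpGs. Capitals mark the motif matches, which are letters in a window and not a known site.
Dnmt1: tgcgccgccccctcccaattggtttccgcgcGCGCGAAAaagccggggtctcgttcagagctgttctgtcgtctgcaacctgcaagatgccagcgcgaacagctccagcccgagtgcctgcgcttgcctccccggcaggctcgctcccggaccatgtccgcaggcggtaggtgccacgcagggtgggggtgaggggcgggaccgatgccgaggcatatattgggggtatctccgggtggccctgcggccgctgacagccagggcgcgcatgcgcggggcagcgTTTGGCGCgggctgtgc
Uhrf1: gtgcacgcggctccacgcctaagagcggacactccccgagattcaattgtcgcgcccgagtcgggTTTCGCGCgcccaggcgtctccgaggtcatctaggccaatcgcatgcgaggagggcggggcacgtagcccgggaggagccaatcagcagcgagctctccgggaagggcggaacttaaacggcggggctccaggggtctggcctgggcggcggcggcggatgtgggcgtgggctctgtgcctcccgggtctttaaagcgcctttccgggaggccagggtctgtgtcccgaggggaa

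Dnmt3b and Dnmt3l, the de novo pair, had unlike patterns. Dnmt3b was high in EpiSCs, EpiLCs and the sorted serum ESCs and lower in 2i, whereas Dnmt3l was high in ESCs of every kind and low in EpiLCs. Dnmt3b (NM_010068) had signals of 7.85 and 7.82 in MEFs, 15.32 and 15.23 in EpiSCs, 15.12 and 15.10 in EpiLCs, 13.72 and 13.76 in 2i, 13.86 and 13.88 in single-reporter ESCs, 15.19 and 15.21 in RFP+ serum ESCs, and 15.10 and 15.13 in RFP- serum ESCs. The arrays thus fell at 3 heights with no overlap: MEFs, then 2i with single-reporter ESCs, then the other 4 groups. By mean the order was EpiSCs, RFP+ serum, RFP- serum, EpiLCs, single-reporter ESCs, 2i, MEFs, and neighbours within a height were not separated by the test (the lowest adjusted p was 0.104, for 2i against single-reporter ESCs). In 2i Dnmt3b was 2.60-fold lower than in RFP- serum ESCs, the same reporter gate in another medium (log2 change -1.38, SE 0.06, adjusted p = 4.13e-07). It was 2.59-fold higher in EpiLCs than in 2i (1.37, SE 0.06, adjusted p = 9.69e-08) and 2.90-fold higher in EpiSCs than in 2i (1.54, SE 0.06, adjusted p = 3.43e-08). In MEFs it was 118-fold lower than the pluripotent mean (log2 change -6.88, SE 0.05, adjusted p = 1.24e-13). A second Dnmt3b probe, for NM_001003963, gave changes of -1.68 in 2i against RFP- serum ESCs, 1.62 in EpiLCs against 2i and 1.45 in EpiSCs against 2i. All were called the same way. In MEFs against the pluripotent mean it gave -4.05, also called lower, but it was undetected in MEFs. The size of the MEF change therefore depends on the probe. The probes differed for EpiSCs against the other groups with high Dnmt3b. The second probe was lower in EpiSCs than in RFP+ serum ESCs (-0.44, adjusted p = 0.00843), where the first gave 0.07 (adjusted p = 0.336). It gave -0.17 in EpiSCs against EpiLCs and -0.23 against RFP- serum ESCs, neither called, where the first probe gave 0.16 for both.

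Dnmt3l (NM_019448) had signals of 7.37 and 7.22 in MEFs, 11.03 and 7.14 in EpiSCs, 8.18 and 8.04 in EpiLCs, 13.16 and 13.12 in 2i, 14.60 and 14.62 in single-reporter ESCs, 15.59 and 15.54 in RFP+ serum ESCs, and 15.46 and 15.46 in RFP- serum ESCs. The 8 ESC arrays lay above all others without overlap, and within ESCs both 2i arrays were lowest. By mean the order was RFP+ serum, RFP- serum, single-reporter, 2i, EpiSCs, EpiLCs and MEFs, and among neighbours only the step between EpiSCs and 2i passed the test. In EpiLCs Dnmt3l was 32.7-fold lower than in 2i (log2 change -5.03, SE 0.90, adjusted p = 0.000932) and 175-fold lower than in RFP+ serum ESCs (-7.45, SE 0.90, adjusted p = 7.46e-05). In 2i it had a change of -2.32 against RFP- serum ESCs, which missed the threshold (SE 0.90, adjusted p = 0.0665). Leaving out both EpiSC arrays left that change at -2.32 with an SE of 0.07 and an adjusted p of 4.64e-08, since the spread is estimated over all groups. The other probe for the same transcript gave -5.18 in EpiLCs against 2i and -2.31 in 2i against RFP- serum ESCs.

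The EpiSC arrays disagreed on Dnmt3l by 3.89 log2, a gap reached by 25 of 10481 genes (0.239%), while the other 4 genes differed by 0.02 to 0.23 between those arrays. The mean of 9.09 therefore describes neither array. In EpiSCs against EpiLCs the change was 0.98 and was not called (SE 0.90, adjusted p = 0.377). Without the first EpiSC array it was -0.97 (adjusted p = 1.82e-05), and without the second it was 2.92 (adjusted p = 2.79e-08). Each way the lone array was assumed to vary like the other groups. In EpiSCs against 2i, Dnmt3l was lower (log2 change -4.06, SE 0.90, adjusted p = 0.00271), but not called when only those 4 arrays entered the fit (adjusted p = 0.0719). The size depended on the array: the change was -6.00 without the first EpiSC array and -2.11 without the second, both called. The first EpiSC array also held more of Esrrb (11.32 against 8.16 on the second array) and Zfp42 (8.99 against 6.83), both genes of naive pluripotency. Of 10 germline genes tested, 5 were at least 1 log2 higher on the first array and 0 on the second, and Tex19.1 had 9.83 on the first and 6.08 on the second. The second array held more Acta2 (15.13, against 10.19 on the first) and Col1a1 (9.57 against 6.04), and 8 of 14 fibroblast and feeder genes were at least 1 log2 higher on it, against 0 of 14 on the first. Of the 8 naive markers on the array, 3 were at least 1 log2 higher on the first array and 0 on the second. Extraembryonic endoderm markers differed too, 3 of 9 higher by that margin on the first array, Amn among them (9.27 against 6.35), and 1 on the second, as did trophoblast markers, 0 of 8 on the first and 2 on the second. The share of all genes with a gap of at least 1 log2 is not given here, so whether these lists stand out from it is not known. The part of these cell types in the Dnmt3l values was not tested. Esrrb, Zfp42, Tex19.1, Amn, Acta2 and Col1a1 were chosen for mention after their values were seen.

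**Figure D2:**
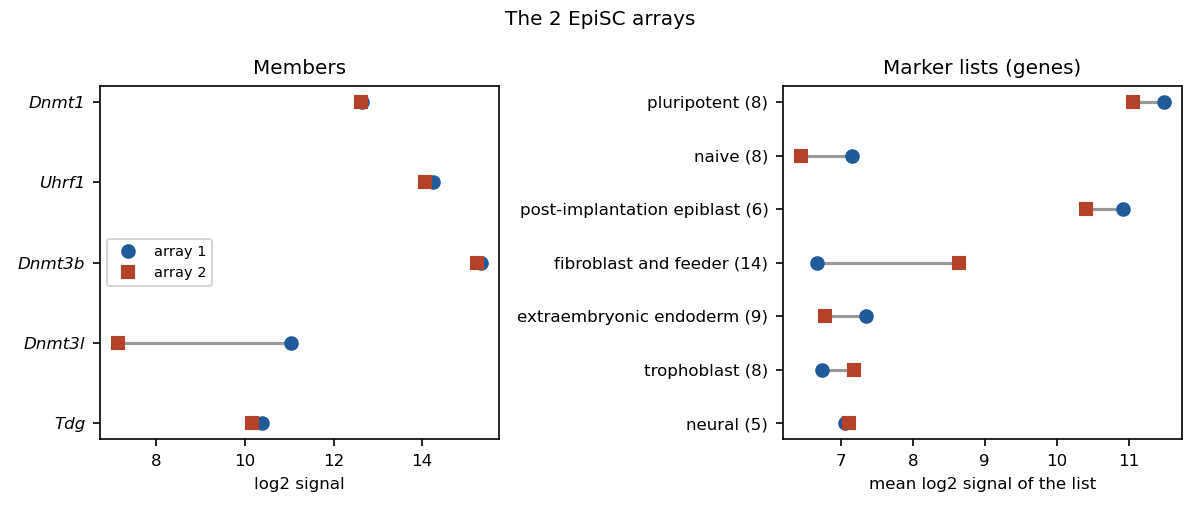
The first (circles) and second (squares) EpiSC array: log2 signal of each of the 5 genes (left) and mean log2 signal of each marker list, with its number of genes (right). Dnmt3l and the fibroblast and feeder list show the widest gaps, in opposite directions.

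The start-site windows of the de novo pair differ in CpG content and are shown for that reason. The Dnmt3b window at chr2:153649199-153649498, plus strand, has 30 CpGs, more than 88.3% of all windows. Dnmt3l has 3 windows of 6, 4 and 3 CpGs, and the one with 6, at chr10:78042037-78042336 on the plus strand, is printed. None of them held a match to the E2F-type motifs, so no capitals are used.
Dnmt3b: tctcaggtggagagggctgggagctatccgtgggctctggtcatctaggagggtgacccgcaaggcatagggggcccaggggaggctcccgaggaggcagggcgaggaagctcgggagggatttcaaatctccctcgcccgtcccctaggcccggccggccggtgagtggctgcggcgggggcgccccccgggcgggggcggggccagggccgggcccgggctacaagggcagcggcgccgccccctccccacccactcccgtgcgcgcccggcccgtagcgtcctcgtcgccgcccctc
Dnmt3l: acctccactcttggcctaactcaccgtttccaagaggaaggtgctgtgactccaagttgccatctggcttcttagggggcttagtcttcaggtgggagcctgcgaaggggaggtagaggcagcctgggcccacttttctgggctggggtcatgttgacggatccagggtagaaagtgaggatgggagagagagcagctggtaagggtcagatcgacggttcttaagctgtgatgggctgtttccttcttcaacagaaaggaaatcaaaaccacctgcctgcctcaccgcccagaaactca

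Tdg, the glycosylase on the removal side, was higher in EpiLCs, EpiSCs and single-reporter ESCs than in 2i or the sorted serum ESCs. Its signals (NM_011561) were 7.39 and 7.46 in MEFs, 10.39 and 10.16 in EpiSCs, 10.29 and 10.19 in EpiLCs, 9.81 and 9.73 in 2i, 10.35 and 10.32 in single-reporter ESCs, 9.64 and 9.73 in RFP+ serum ESCs, and 9.59 and 9.53 in RFP- serum ESCs. The 6 arrays of the first-named groups lay above the 6 arrays of 2i and sorted serum cells, and MEFs lay far below. By mean the order was single-reporter, EpiSCs, EpiLCs, 2i, RFP+ serum, RFP- serum and MEFs, in which the steps between EpiLCs and 2i and between RFP- serum ESCs and MEFs passed the test. Tdg was 1.38-fold higher in EpiLCs than in 2i (log2 change 0.47, SE 0.09, adjusted p = 0.0015) and 1.42-fold higher in EpiSCs than in 2i (0.50, SE 0.09, adjusted p = 0.0007). It was 1.64-fold higher in EpiSCs than in RFP- serum ESCs (0.72, SE 0.09, adjusted p = 6.61e-05). In MEFs it was 5.87-fold lower than the pluripotent mean (log2 change -2.55, SE 0.07, adjusted p = 3.65e-10). The second Tdg probe, for NM_172552, was detected on 0 of 14 arrays and was not tested.

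Taken by comparison, EpiLCs against 2i moved all 5 genes, where 55.1% of all genes were called: Dnmt3b and Tdg rose and Dnmt1, Uhrf1 and Dnmt3l fell. EpiSCs against 2i moved 3 of 5, against 66.3% of all genes, with Dnmt3b and Tdg higher and Dnmt3l lower. For Dnmt1 the EpiSC minus 2i difference was 0.03, with a 95% interval from -0.18 to 0.23. With median scaling in place of quantile normalization that value was -0.29 (adjusted p = 0.0285), Uhrf1 had -0.58 (adjusted p = 0.000394) against -0.17, and the median of all genes shifted by -0.15 under that scaling. Uhrf1 was also called with robust eBayes and a trend on intensity (-0.17, adjusted p = 0.0475), and without the first EpiSC array (-0.27). EpiSCs against EpiLCs called Dnmt1 alone, higher, where 56.4% of all genes were called. Dnmt3b was called higher as well with no background correction (adjusted p = 0.0318), a detection p under 0.01 (adjusted p = 0.0438) or robust eBayes with a trend on intensity (adjusted p = 0.0135). The last setting also called Uhrf1 higher (0.19, adjusted p = 0.0393). Without the second EpiSC array Dnmt3b (0.21) and Uhrf1 (0.28) were both called higher. The second Dnmt3b probe gave -0.17, not called. The EpiLC comparisons share their EpiLC arrays, and those with 2i share the 2i arrays.

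EpiLCs against RFP+ serum ESCs, which share the RFP+ gate, moved 4 of 5 genes, against 55.0% of all genes. Tdg rose by 0.55 log2 (SE 0.09, adjusted p = 0.00053), while Dnmt3l, Dnmt1 and Uhrf1 fell. Dnmt3b did not pass there, with a change of -0.09 and a 95% interval from -0.24 to 0.06. EpiSCs against RFP- serum ESCs called Tdg higher and Dnmt3l lower (log2 change -6.37, adjusted p = 0.000149), 2 of 5 genes where 65.2% of all genes were called. The Dnmt3l change was -8.32 without the first EpiSC array and -4.43 without the second. Dnmt3b, uncalled in the main fit, was called higher there under other settings with all arrays kept. These were no background correction (adjusted p = 0.0343), a detection p under 0.01 (adjusted p = 0.0459) and robust eBayes with a trend on intensity (adjusted p = 0.0147). Without the second EpiSC array its change was 0.20, also called, while the second Dnmt3b probe gave -0.23, not called. Uhrf1 was called lower with median scaling (-0.28, adjusted p = 0.0279), where the median of all genes shifted by -0.08. Dnmt1 (0.19) was called with either 2i array left out.

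2i against RFP- serum ESCs called 1 of 5 genes, Dnmt3b, where 39.7% of all genes were called. Dnmt1 and Uhrf1 had changes of 0.16 and 0.08 there, with 95% intervals from -0.04 to 0.37 and from -0.11 to 0.27. With median scaling Dnmt1 (0.30, adjusted p = 0.0392), Uhrf1 (0.30, adjusted p = 0.0305) and Tdg (0.28, adjusted p = 0.0345) were called higher in 2i. The median of all genes shifted by 0.08 under that scaling. Without both EpiSC arrays, Dnmt3l and Tdg (0.21, adjusted p = 0.0257) were called too, and without the second 2i array Dnmt1 was (0.31, adjusted p = 0.0264). RFP+ against RFP- serum ESCs called 0 of 5 genes, where limma called 13 of 10481 genes (0.124%) and 578 genes had an unadjusted p under 0.05. The 5 changes between these gates ran from 0.03 for Uhrf1 to 0.13 for Tdg, and the 95% interval for Dnmt3b ran from -0.06 to 0.23. Fitting those 4 arrays alone gave 0 of 10481 genes, and leaving out both EpiSC arrays gave 46.

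Single-reporter ESCs against the mean of the sorted serum ESCs called 4 of 5 genes, against 63.1% of all genes. Dnmt3b was 2.44-fold lower (log2 change -1.29, SE 0.06, adjusted p = 7.09e-08), Uhrf1 1.94-fold lower (-0.95, SE 0.07, adjusted p = 2.61e-06) and Dnmt1 1.71-fold lower (-0.77, SE 0.08, adjusted p = 1.7e-05). The second Dnmt3b probe gave a larger change there, -1.96 (SE 0.10), also called lower, so the size for Dnmt3b depends on the probe. Tdg was 1.64-fold higher (0.71, SE 0.08, adjusted p = 2.61e-05). Dnmt3l had a change of -0.90, which was called without the EpiSC arrays (adjusted p = 1.37e-06) but not with them (adjusted p = 0.339). The single-reporter cells had the higher fibroblast and feeder signal given above and no sort gate in their labels, and the line, the gate and the fibroblast signal cannot be told apart here. MEFs against the mean of the 6 pluripotent groups called all 5 genes lower, where 84.0% of all genes were called and 44.1% were called lower. Against single groups, Dnmt3l was not called in MEFs against EpiSCs (-1.79, adjusted p = 0.093) or against EpiLCs (-0.82, adjusted p = 0.423). The SE of 0.90 in both takes in the gap between the EpiSC arrays. Both MEF arrays (7.37 and 7.22) lay below both EpiLC arrays (8.18 and 8.04), so that missing call does not show equal levels. Of the EpiSC arrays, the first (11.03) lay above both MEF arrays and the second (7.14) below both. On the other Dnmt3l probe the second EpiSC array (6.77) lay between the MEF arrays (6.67 and 6.96). The missing call against EpiSCs does not show equal levels either.

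**Figure D3:**
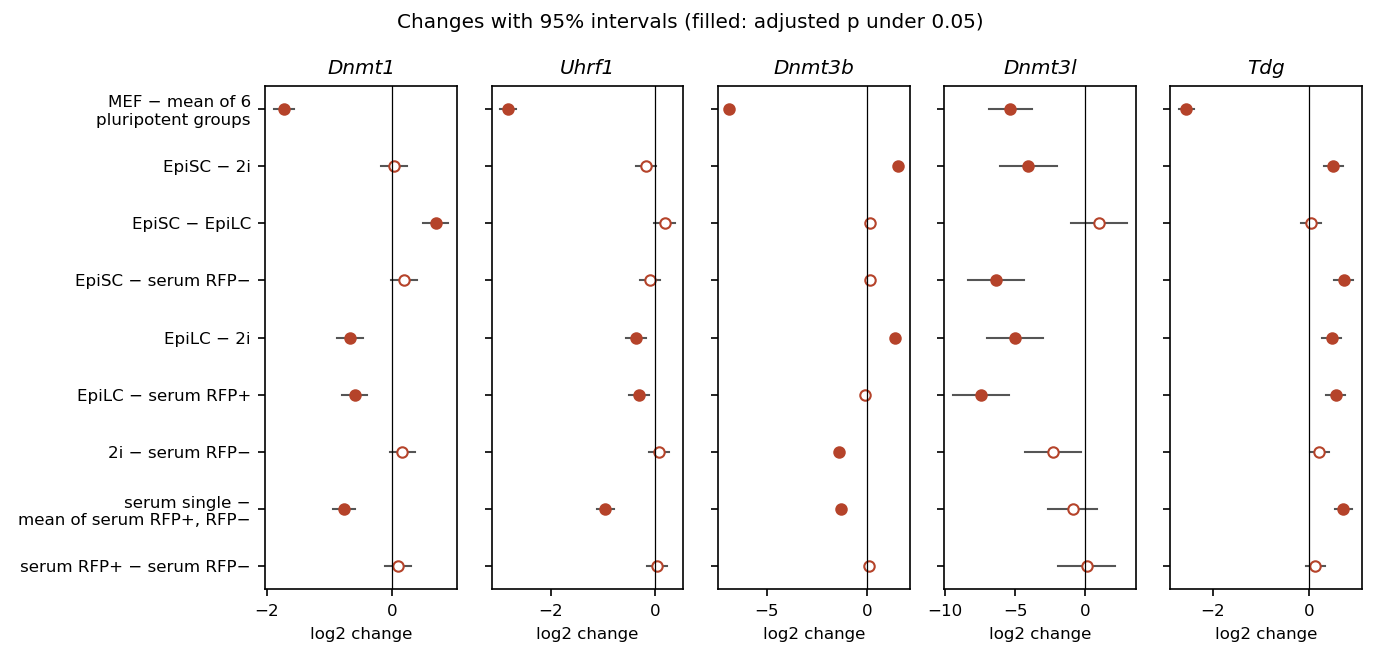
Log2 change of each gene in 9 comparisons (x axis, own scale per panel) with unadjusted 95% intervals. Filled points had an adjusted p under 0.05. Dnmt3b lies right of 0 in EpiLCs and EpiSCs against 2i and left of 0 in 2i against RFP- serum ESCs, and the Dnmt3l intervals are wide because of the EpiSC arrays.

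Genes of S phase and proliferation were read beside Dnmt1 and Uhrf1, because maintenance methylation is tied to replication. In MEFs, where 44.1% of all genes were called lower, 18 of 18 tested genes of that list fell, with a median of -2.54 against -0.09 over all genes, among them Mcm5 with -4.01 and Mcm2 with -3.65, subunits of the replicative helicase. In EpiLCs against 2i, where 55.1% of all genes were called, 1 of 18 rose and 5 fell, with a median of -0.19 against -0.01. The licensing factors Cdt1 (-0.46, adjusted p = 0.00074) and Cdc6 (-0.48, adjusted p = 0.0038) were among those that fell. In single-reporter ESCs against sorted serum ESCs, with 63.1% of all genes called, 6 rose and 8 fell, with a median of -0.07 against 0.00. In EpiSCs against 2i, where Dnmt1 was not called but 66.3% of all genes were, 2 rose and 9 fell, with a median of -0.52 against -0.01. The part of proliferation in the levels of Dnmt1 and Uhrf1 was not tested.

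The other partners of maintenance numbered 5 tested of 6. In EpiLCs against 2i, where 55.1% of all genes were called, 1 rose and 1 fell: the Uhrf1 paralogue Uhrf2 rose by 0.84 log2 (SE 0.14, adjusted p = 0.000561) while Usp7, a deubiquitinase that binds Dnmt1, fell by 0.74 (SE 0.09, adjusted p = 6.68e-05). The same genes were called the same way in EpiSCs against 2i, with 0.55 for Uhrf2 and -1.13 for Usp7, and the replication ligase Lig1 fell there by 0.31. In MEFs 4 of 5 fell, against 44.1% of all genes, led by Cdca7 with -4.10 and Lig1 with -3.24, and Uhrf2 was not called. In 2i against RFP- serum ESCs 0 of 5 were called, with a median of 0.04 against 0.01 over all genes. Hells, Dnmt3a, Tet3 and Mbd2 had no probe that passed the detection filter, which does not show that these genes were silent. No probe was annotated to Dnmt3c, Tet1 or Tet2, so nothing is known of them here.

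On the removal side, 13 of 18 listed genes of oxidation and base excision were tested. In EpiLCs against 2i, 4 rose and 5 fell, beside 55.1% of all genes called, with a median of -0.18 against -0.01 over all genes. Gadd45b rose by 1.60 (SE 0.26, adjusted p = 0.000585) and Apobec1, a cytidine deaminase, by 1.52, while Mbd4, a glycosylase for T or U opposite G as Tdg is, fell by 1.34 (SE 0.13, adjusted p = 1.38e-05). The uracil glycosylase Ung fell by 0.94. In 2i against RFP- serum ESCs, where 39.7% of all genes were called, 3 rose and 3 fell: Mbd4 rose by 0.84 and Gadd45a fell by 1.88. In MEFs 2 rose and 9 fell, beside 84.0% of all genes called, with Ung down by 4.67 and Mbd4 at least 5.73-fold lower, since it was undetected there. A bound of this kind sets the brighter mean against the higher of the dim probe's own signal and the lowest detected signal.

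Regulators of methylation numbered 11 tested of 14. Dppa3, which is known in mouse to hold Uhrf1 away from chromatin, had 4.70 and 4.78 in MEFs and 5.10 and 5.01 in EpiSCs, undetected in both. It had 6.39 and 6.00 in EpiLCs, 12.34 and 12.36 in 2i, 10.99 and 10.94 in single-reporter ESCs, 11.57 and 11.53 in RFP+ serum ESCs, and 12.13 on both RFP- arrays. Its signals thus split ESCs from all other groups, as those of Dnmt3l did. In EpiLCs it fell by 6.15 log2 against 2i (SE 0.11, adjusted p = 4.33e-10), and in EpiSCs it was at least 99.5-fold lower than in 2i. Prdm14, which represses Dnmt3b and Dnmt3l in mouse ESCs, had 7.36 and 7.15 in 2i against 5.51 and 5.70 in RFP- serum ESCs, of which 1 array was above background, so its size there is uncertain (called higher in 2i, adjusted p = 6.43e-06). It was undetected in EpiLCs, at least 2.76-fold lower than in 2i. In EpiLCs against 2i, 1 regulator rose and 6 fell, beside 55.1% of all genes called, with a median of -0.29 against -0.01. In EpiSCs against 2i, 2 rose and 7 fell, beside 66.3% of all genes called, with a median of -0.55 against -0.01. The histone methyltransferase Setdb1 rose there by 1.16 (SE 0.25, adjusted p = 0.00251).

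**Figure D4:**
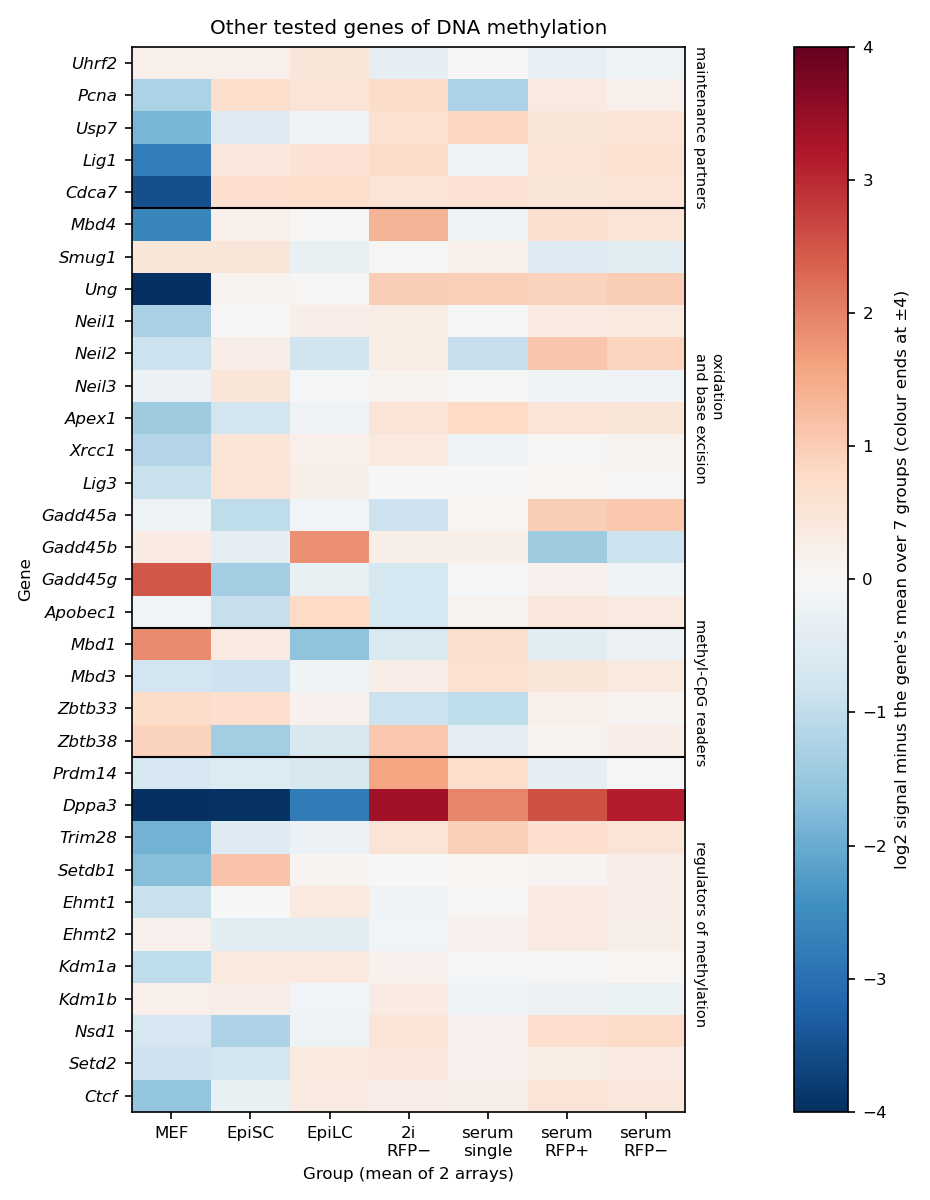
Tested genes of the maintenance, removal, reader and regulator lists (rows) by group (columns, mean of 2 arrays). Colour gives the log2 signal minus the gene's own mean over the 7 groups, so rows show differences and not levels between genes. Dppa3 is high in the 4 ESC groups and low in EpiLCs, EpiSCs and MEFs.

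Readers of methyl-CpG numbered 4 tested of 7. Zbtb33 (Kaiso) ran with Dnmt3b across the 2i comparisons: it was 0.96 lower in 2i than in RFP- serum ESCs (SE 0.09, adjusted p = 3.6e-05), 1.03 higher in EpiLCs than in 2i and 1.54 higher in EpiSCs than in 2i. Mbd3 fell by 0.43 in EpiLCs and by 1.11 in EpiSCs against 2i. Mbd1 split the primed groups, 1.02 lower in EpiLCs but 0.97 higher in EpiSCs than in 2i, and EpiSCs stood 1.98 above EpiLCs (SE 0.13, adjusted p = 2.14e-06).

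Among 11 tested of 15 genes of methyl donor metabolism, EpiLCs against 2i had 3 rises and 4 falls, beside 55.1% of all genes called. Mthfd2, a mitochondrial folate enzyme, rose by 1.10 and Shmt1, which makes one-carbon units from serine, fell by 1.49. Ahcy, which clears S-adenosylhomocysteine, fell by 2.51 in EpiSCs against 2i (SE 0.08, adjusted p = 6.05e-09), where 3 of 11 rose and 6 fell, beside 66.3% of all genes called. In MEFs Gldc, the glycine decarboxylase, fell by 8.17 and Nnmt, which uses up S-adenosylmethionine, rose by 5.76.

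Germline genes whose promoters are known targets of methylation were read as well, 10 tested of 17. In EpiLCs against 2i, 0 rose and 6 fell, a called share to be read against 55.1% of all genes, with a median of -0.68 against -0.01. In EpiSCs against 2i, where 66.3% of all genes were called, 0 rose and 7 fell, with a median of -0.90 against -0.01. Tex19.1 fell by 4.50 in EpiLCs (SE 0.86, adjusted p = 0.00149) and Piwil2, of the piRNA pathway, by 2.04 (SE 0.31, adjusted p = 0.000327). In 2i against RFP- serum ESCs 2 rose and 2 fell, beside 39.7% of all genes called, and Piwil2 fell there by 1.79 (SE 0.31, adjusted p = 0.00134). Piwil2 had 8.02 and 7.89 in 2i against 9.78 and 9.72 in RFP- serum ESCs. No methylation was measured in these samples.

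The genes whose signals followed each member most closely over the 14 arrays were named by Pearson correlation among all genes tested, as a description with no test. Dnmt3b was matched by Ppp1r9a (0.995), Egfl7 (0.988), Kcnk1 (0.988), Rbm38 (0.988) and Phf6 (0.988). Dnmt3l was matched by D1Pas1 (0.986), Piwil2 (0.980), Exosc1 (0.979), Dus3l (0.977) and Porcn (0.976). For Uhrf1 the list was Zfp473 (0.995), Rpl4 (0.994), Cdc6 (0.993), Dctpp1 (0.993) and Fam122b (0.991). For Tdg it was Aurka (0.995), Esyt3 (0.994), Dcakd (0.992), 2610318N02Rik (0.988) and Epb41l5 (0.985). Dnmt1 had the loosest matches, with Tjp3 (0.979) ahead of Proser3, Gga3, Syne4 and Rcor2 (0.974). These values were taken over all 14 arrays only, so the weight of the MEF arrays in each is not known. That weight can be large: Dnmt3b and Tdg correlated at 0.91 over 14 arrays and at -0.11 over the 12 pluripotent ones. Dnmt3b and Dnmt3l correlated at 0.48 over 14 arrays and at -0.27 over the pluripotent ones.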

How the data were processed

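The deposited scanner table holds non-normalized signal intensities and detection p-values for 25697 probes, per the file headers. The submitters' processing notes name GenomeStudio 2011.1, and its settings are not given in the sources used here. The authors also deposited processed log2 values, which matched quantile-normalized log2 scanner signals (100% within 0.01) and served as an alternative.

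The signals were processed with neqc (limma 3.58.1, R 4.3.3, offset 16), that is normexp with controls inferred from the detection p-values, quantile normalization and log2. Of the probes, 23978 had 1 symbol and 1719 none. A gene was represented by its brightest probe among probes detected (p-value under 0.05) in both samples of some group, which left 10481 genes. One limma model of 7 group means (lmFit, eBayes) had 7 residual degrees of freedom. Array number limits precision: the median half-width of a 95% interval was 0.289 log2. Between 46.4% and 53.8% of probes were detected per array, and array medians were 142.6 to 209.4, but 313.5 and 316.8 for EpiSCs.

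The members and lists were chosen with earlier results of these data known. Genes named from a list were those called with the largest changes, at most 4 each way per comparison. Like-patterned genes were the 5 with the highest correlation. Replicate numbers were not taken to pair samples. Of 21 correlations of replicate differences, 0 exceeded 0.1, and the highest was 0.087. With only 2 samples per group, that does not exclude a pairing. The model was run on simulated data for EpiLCs against 2i only, with independent normal values and the same spread in every group. That does not cover a group with a larger spread, such as EpiSCs for Dnmt3l. Alternatives covered background, scaling, filters, probes, variance model, arrays fitted and each array left out.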

Additional observations from a re-analysis of the deposited data

How the results depend on the processing

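Of 1065 values of single genes under other settings, 1024 kept their side of the threshold, 36 gained the call, 3 lost it and 2 turned round. A value counted as turned only if its sign changed and it was called in the main fit or in the other setting. Any changes of sign between uncalled values are among the 1024. The authors' processed values and the signals without background correction matched within 0.01 log2, so those settings are not separate alternatives though both are counted. By that rule the values that turned were Dnmt1 in EpiSCs against 2i and Dnmt3l in EpiSCs against EpiLCs. Dnmt1 had -0.29 with median scaling. Dnmt3l had -0.97 without the first EpiSC array, against 2.92 without the second. For 2i against RFP- serum ESCs, 1 member was called; the count was 2 with no background correction, 2 with the authors' processed values, 2 with only the groups compared, 4 with median scaling, 3 without the EpiSC arrays and 1 to 3 with single arrays left out. For EpiSCs against 2i, 3 were called, 5 with median scaling and 3 to 4 with single arrays left out. For EpiSCs against EpiLCs, 1 was called; it was 2 with no background correction, the authors' values or a detection p under 0.01, 3 with robust eBayes and a trend on intensity, and 1 to 4 with single arrays left out. Counts of members in the other 6 comparisons stayed within 1.5 times. Median scaling moved the share of higher calls for EpiLCs against 2i to 39.3%, from 49.9%. Called genes numbered 3403 for EpiSCs against EpiLCs when only those groups were fitted, against 5909. For RFP+ against RFP- serum ESCs 13 genes were called, 0 with only the groups compared, 46 without the EpiSC arrays, 9 with the replicate block and 1 to 46 with single arrays left out. With the replicate number as a block, 63 values were tried, made up of changes of single genes and counts of called genes. The single genes all kept their side of the threshold and the counts stayed within 1.5 times. EpiLCs against 2i again called 5 members with that block. MEFs against the 4 sorted double-reporter groups, an alternative chosen after seeing the data, again called 5 members. A slide block was not run, since the columns name no slides. The causes were not tested.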
